A study of Mus musculus with 27 samples.

Results

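Hepatocyte organoids (HepOrgs) are cultures in which primary mouse hepatocytes grow as small three-dimensional structures in Matrigel, with no mesenchyme or endothelium added. The comparison described here is the change of a medium effect with time: the difference between the minimal medium MM and the hepatocyte organoid medium HM-Wnt after 2 weeks, minus the same difference after 1 week. It draws on 12 of the 27 libraries of the series, chosen by their labels as HepOrgs at passage 2 in MM or HM-Wnt at either time. Each of the 4 groups has 3 libraries, and all of them are wild-type C57BL/6. The organoids were grown in HM-Wnt to passage 2 and were then kept in HM-Wnt or moved to MM for 7 or 14 days. Both media hold a basal medium, Wnt conditioned medium and a ROCK inhibitor. HM-Wnt also holds EGF, HGF, FGF7, FGF10, gastrin, R-spondin 1 conditioned medium, nicotinamide, the GSK3 inhibitor CHIR99021 and the TGF-beta receptor inhibitor A83-01, so MM differs from it by all of these at once. Organoids of other kinds and stray mesenchyme were removed by hand picking. The labels do not say whether the 3 libraries of a group came from separate mice or cultures, so the p-values measure the spread between these libraries.

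The value reported for each gene is an interaction on the log2 scale. A positive interaction means that MM relative to HM-Wnt was higher at 2 weeks than at 1 week, and a negative one that it was lower. It can arise in 3 ways, with a difference that widens, narrows or changes sign. Primary hepatocytes tend to lose liver functions as they are expanded in growth factors. Fatty acid handling in hepatocytes is under PPARalpha, a nuclear receptor that fatty acids activate and that drives oxidation genes. Wnt and beta-catenin signalling drives the pericentral programme and a set of feedback targets, and HIF factors drive the glycolytic genes when oxygen is short.

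The 12 libraries held 30289364 to 58815016 counts in genes. Hepatocyte identity was present in each of them, with the plasma protein gene Alb at 3853 to 24900 CPM (counts scaled by edgeR's TMM factors, per 1e6 counts, as for every gene level below except where total counts are named). Cholangiocyte markers summed to 3910 to 15594 CPM of total counts over 12 genes, most of it Spp1. The defining biliary keratin gene Krt19 was detected in each library, and the chloride channel gene Cftr had a count of 0 in 4 of 12. Immune markers summed to 7.16 to 68.9 CPM in 11 libraries and to 842 in MM at 2 weeks replicate 3, where the macrophage lysozyme gene Lyz2 reached 709. Mesenchyme markers summed to 3.50 to 214 CPM. HM-Wnt at 1 week replicate 2 had the highest share of counts in mitochondrially encoded genes (3.51%) and in its 10 most abundant genes (32.5%). MM at 2 weeks replicate 3 followed it in mitochondrial share with 3.44%. In bulk RNA, fewer cells of a type and less RNA per cell cannot be told apart.

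No gene passed the threshold for a change of the medium effect with time. Among 12989 genes tested with edgeR's quasi-likelihood test, 0 (0%) had a Benjamini-Hochberg adjusted p under 0.05, and the smallest adjusted p was 0.392. At an unadjusted p under 0.05 there were 951 genes (7.32%), 486 positive (3.74%) and 465 negative (3.58%). DESeq2 on the same counts called 43 genes (0.331%), 18 positive and 25 negative, and 43 of these 43 had an unadjusted p under 0.05 by edgeR. Taking the replicate number into the fit as a block, edgeR still called 0, with a smallest adjusted p of 0.0539 and 1754 genes at an unadjusted p under 0.05 (13.5%), 953 positive (7.34%) and 801 negative (6.17%), whereas DESeq2 with the block called 342. The genes named below are thus a ranking by edgeR in which none is past its threshold.

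The size of the interactions was close to their error. The median absolute interaction over all genes was 0.34, and the median standard error was 0.37. Absolute values of 1 or more were reached by 1520 genes (11.7%). Over the 12989 genes, the medium effect widened from 1 to 2 weeks in 38.7%, changed sign in 31.3% and narrowed in 29.9%. Among the 951 genes at an unadjusted p under 0.05, 60.5% changed sign, 32.3% widened and 7.26% narrowed, and the change with time was larger in MM than in HM-Wnt for 54.7%, compared with 44.9% of all genes. The 951 were chosen on the interaction, which tends to be larger where the medium effect changes sign. Their shares therefore describe the selection and are not a test.

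The medium effect itself passed the test far more often at the later time. MM and HM-Wnt differed for 387 genes at 1 week (2.98% of those tested) and 1488 at 2 weeks (11.5%), of which 229 (1.76%) and 889 (6.84%) were higher in MM. With the replicate block edgeR called 1232 and 2544. The 1 week count was 42 and 70 without MM at 1 week replicates 1 and 2, 600 without replicate 3, 147 and 113 without HM-Wnt at 1 week replicates 2 and 3, 223 and 243 without MM at 2 weeks replicates 1 and 2, and 171 without HM-Wnt at 2 weeks replicate 1. The 2 week count was 578 and 606 without MM at 2 weeks replicates 1 and 2, and 650 and 758 without HM-Wnt at 2 weeks replicates 1 and 3. Both times shared 276 calls, which was 71.3% of the 1 week list and 18.5% of the 2 week list, and 0 of them had opposite signs. Of the 387 genes, 380 kept their sign at 2 weeks (98.2%, 95% exact binomial interval 96.3% to 99.3%, counting error over genes, which are not independent). Their median absolute effect was 1.26 at 1 week, and 1.16 at 2 weeks in the same direction. Read from the other side, the 1488 genes had a median absolute effect of 1.32 at 2 weeks and 0.74 at 1 week. Each list was chosen on the effect at its own time. A larger count at 2 weeks is not a test of the change, for which the interaction gave the count of 0 above, and over all genes the median absolute medium effect was 0.34 at 1 week and 0.36 at 2 weeks with the same median standard error of 0.26. Across the 12989 genes the medium effects at the 2 times had a Pearson r of 0.673 and a Spearman rho of 0.56, as a description. Time on its own passed for 2 genes in MM (0.0154%), the acyl-CoA thioesterase gene Acot2 and the asparaginase gene Aspg, both higher at 2 weeks, where DESeq2 called 308 and limma voom 531. It passed for 0 in HM-Wnt, where 1134 genes (8.73%) had an unadjusted p under 0.05, DESeq2 called 13 and limma voom 0.

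**Figure D1:**
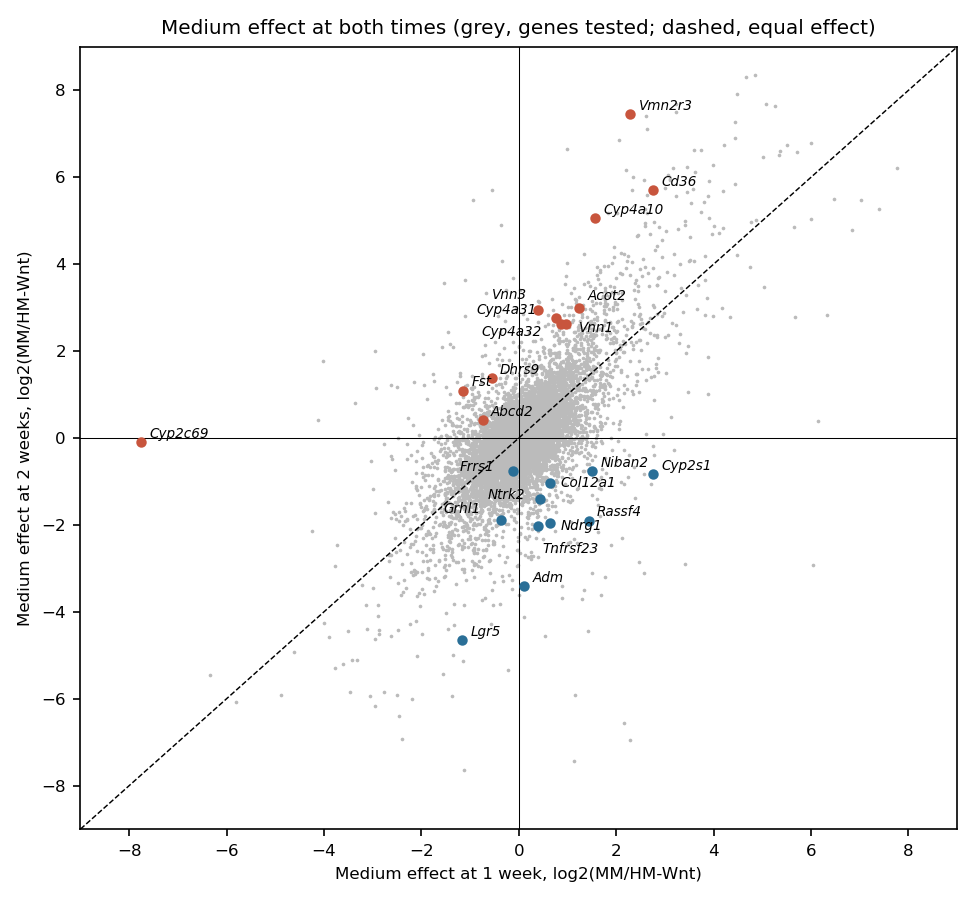
Medium effect, log2 of MM over HM-Wnt, at 1 week (x axis) and 2 weeks (y axis). Grey points are the 12989 genes tested, of which 5 lie outside the axes, the dashed line marks equal effects, and 23 of the 24 highest ranked genes are red where the interaction was positive and blue where it was negative. The red points lie above the dashed line and the blue ones below it by construction.

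The genes with the smallest unadjusted p in each direction, 12 positive and 12 negative, are counted first, and 23 of them are then described by role. They were ranked on the interaction, so their counts below describe them and are not tests. The interaction had the same sign in 3 of 3 replicate numbers for each of the 24, as it did for 39.1% of all genes. DESeq2 called 24 of the 24, and 13 of them had an adjusted p under 0.1 in edgeR with the replicate block, where 40 of all genes did (0.308%). The medium effect widened in 8 of the 12 positive genes, changed sign in 3 and narrowed in 1. It changed sign in 9 of the 12 negative genes and widened in 3. For 21 of the 24 the difference between times was larger in MM than in HM-Wnt. At 2 weeks MM lay above HM-Wnt without overlap for 11 of the 12 positive genes, compared with 18.7% of all genes, and below it for 10 of the 12 negative genes, compared with 18.8%.

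Of the 12 positive genes, 6 act in fatty acid handling (Cd36, Cyp4a10, Cyp4a31, Cyp4a32, Acot2 and Abcd2), a grouping made after the ranking was seen and not tested against other genes. Cd36 encodes the fatty acid transporter of the cell surface. Its levels in HM-Wnt were 9.09, 12.01 and 8.14 CPM at 1 week and 7.77, 3.22 and 5.77 at 2 weeks. In MM they were 76.6, 95.3 and 26.5 CPM at 1 week and 336, 317 and 220 at 2 weeks. Both MM groups lay above both HM-Wnt groups, and the 2 weeks MM libraries lay above those of 1 week. The interaction was 2.94 (SE 0.61, edgeR adjusted p = 0.392), made of a medium effect of 2.76 at 1 week and 5.70 at 2 weeks, both past the threshold.

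Cyp4a10 encodes a fatty acid omega-hydroxylase that is a widely used PPARalpha target. It was at 1.37, 2.40 and 1.27 CPM in HM-Wnt at 1 week and 0.939, 0.705 and 0.997 at 2 weeks. In MM it was at 2.84, 3.35 and 8.47 CPM at 1 week and 19.0, 19.7 and 49.5 at 2 weeks. The media did not overlap at either time, nor the times in either medium, and the interaction was 3.50 (SE 0.70). Its neighbours in the same gene cluster on chromosome 4, Cyp4a31 and Cyp4a32, had interactions of 2.00 (SE 0.43) and 1.77 (SE 0.37). The sequences of the Cyp4a genes are close to each other, so reads may have been divided between them, and the 3 are not independent.

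Acot2 encodes a mitochondrial acyl-CoA thioesterase. It stayed between 1.23 and 1.57 CPM in the 6 HM-Wnt libraries. In MM it was at 3.97, 2.69 and 2.53 CPM at 1 week and 10.67, 10.47 and 11.29 at 2 weeks. The rise with time in MM was 1.82 (SE 0.22, edgeR adjusted p = 0.0214) and passed the threshold, while the interaction of 1.74 (SE 0.31, edgeR adjusted p = 0.392) did not. Abcd2, a peroxisomal transporter of very long chain fatty acids, lay below HM-Wnt at 1 week in MM and above it at 2 weeks. It was at 49.7, 40.5 and 44.0 CPM in HM-Wnt and 30.8, 22.2 and 27.6 in MM at 1 week. At 2 weeks it was at 35.0, 32.0 and 34.5 CPM in HM-Wnt and 41.4, 38.2 and 55.5 in MM. The groups did not overlap at either time, and the interaction was 1.15 (SE 0.24).

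Vnn1 encodes vanin 1, a pantetheinase of the hepatocyte surface that responds to PPARalpha. In HM-Wnt it was at 143, 163 and 93.5 CPM at 1 week and 88.7, 104 and 76.6 at 2 weeks. In MM it was at 266, 285 and 233 CPM at 1 week and 524, 583 and 557 at 2 weeks. MM lay above HM-Wnt at each time, and the 2 weeks MM libraries were the highest of the 4 groups. Its interaction was 1.66 (SE 0.29), with values of 1.67, 1.67 and 1.54 in replicate numbers 1 to 3. The neighbouring family member Vnn3 had an interaction of 2.56 (SE 0.52), and its MM libraries went from 45.6 to 126 CPM at 1 week to 220 to 328 at 2 weeks.

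The remaining positive genes had other roles or low counts. Dhrs9, a dehydrogenase that acts on retinol, had an interaction of 1.94 (SE 0.41), from a medium effect of -0.56 at 1 week to 1.38 at 2 weeks. Fst encodes follistatin, which binds activins, and went from 6.65 to 8.84 CPM in MM at 1 week to 27.2 to 35.8 at 2 weeks, with an interaction of 2.23 (SE 0.52). Vmn2r3 is annotated as a vomeronasal receptor. It was at 0.141 to 1.37 CPM in HM-Wnt and reached 28.5, 125 and 13.5 CPM in MM at 2 weeks, with an interaction of 5.16 that was 3.73 without MM at 2 weeks replicate 2. Cyp2c69 is one of a family of near-identical Cyp2c genes, and its counts may hold reads of other members. Its value of 7.65 came from HM-Wnt, at 2.82, 19.2 and 1.48 CPM at 1 week against 0.164, 0.047 and 0.315 at 2 weeks. In MM it had between 0 and 16 counts in a library, so that its fold there depends on the fit's prior count, and the interaction was 5.81 without HM-Wnt at 1 week replicate 2 and 5.57 without MM at 2 weeks replicate 3.

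**Figure D2:**
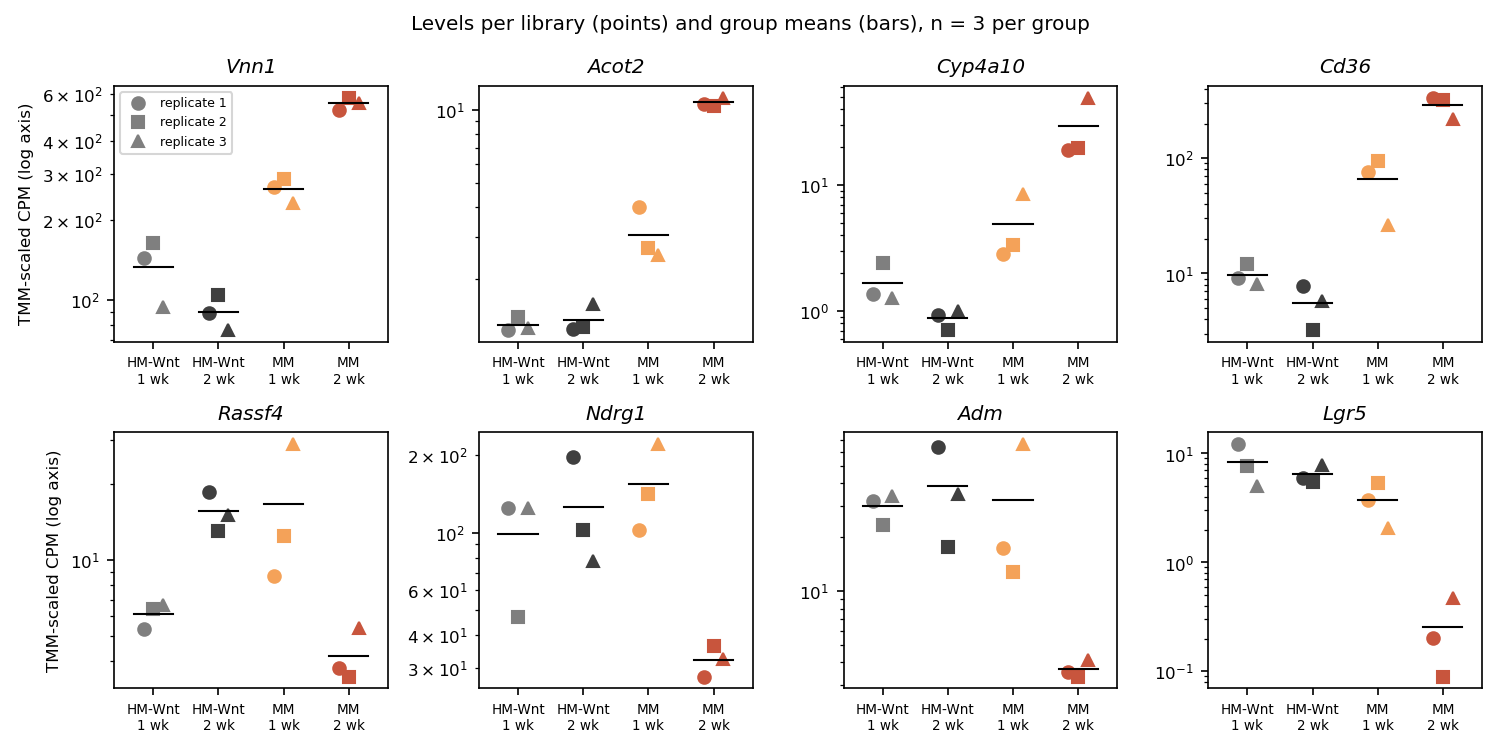
Levels of 8 of the ranked genes in the 12 libraries, as TMM-scaled CPM on a log axis, by medium and time. Points are libraries, with the replicate number as the shape, and bars are group means (n = 3). The upper row shows genes with positive interactions, highest in MM at 2 weeks, and the lower row genes with negative interactions, lowest in MM at 2 weeks.

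The promoter sequences of Cd36 and Adm are shown as 1 fatty acid gene and 1 hypoxia gene of the ranking, both chosen after their values were seen, so that the letters searched below can be read. They are taken from RefSeq and hold the 250 bases before the annotated start, read 5′ to 3′ on the gene's strand in build GRCm38.p6, and 15 of the 24 genes had an entry. For each ranked gene only the first entry listed was used, so any other start of the gene was not searched. The Cd36 entry lies on the minus strand of chromosome 5 (chr5:17835897-17836146) and that of Adm on the plus strand of chromosome 7 (chr7:110627407-110627656). The motifs searched on both strands were AGGTCA, the hexamer of nuclear receptors such as PPAR, ACGTG, the core of the hypoxia response element, and CTTTGAT, a TCF/LEF motif, and matches are in capitals.
Cd36: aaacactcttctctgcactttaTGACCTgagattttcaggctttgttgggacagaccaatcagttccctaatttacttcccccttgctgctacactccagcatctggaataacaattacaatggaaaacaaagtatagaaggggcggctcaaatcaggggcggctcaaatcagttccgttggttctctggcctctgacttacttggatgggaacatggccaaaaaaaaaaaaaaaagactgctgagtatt
Adm: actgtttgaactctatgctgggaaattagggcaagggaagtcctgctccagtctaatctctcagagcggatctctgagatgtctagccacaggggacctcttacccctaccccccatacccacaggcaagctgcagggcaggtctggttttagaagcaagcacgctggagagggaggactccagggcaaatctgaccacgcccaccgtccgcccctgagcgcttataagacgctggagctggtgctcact
The capitals in Cd36 are 1 match to the reverse complement of AGGTCA, 228 bases before the start, and Adm held none of the 3 motifs in this window. Over the 15 promoters, 2 held AGGTCA (Cd36 and Dhrs9), 0 held ACGTG and 0 held CTTTGAT. Of all 32851 promoters in the table, 14.0%, 16.6% and 3.21% held them. A match is a run of letters and not a binding site.

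On the negative side, the hypoxia genes Adm and Ndrg1 were lower in MM than in HM-Wnt at 2 weeks by edgeR's adjusted p and not at 1 week, though neither interaction passed. Adm encodes adrenomedullin, a vasodilator peptide. It was at 31.7, 23.5 and 34.1 CPM in HM-Wnt at 1 week and 64.0, 17.6 and 34.7 at 2 weeks. In MM it was at 17.4, 12.9 and 66.2 CPM at 1 week and 3.53, 3.33 and 4.11 at 2 weeks. The media overlapped at 1 week and were apart at 2 weeks, where the medium effect was -3.41 (edgeR adjusted p = 0.00678). The interaction was -3.52 (SE 0.82). Ndrg1, a stress gene that HIF factors induce, had a medium effect of 0.65 at 1 week and -1.96 at 2 weeks, and an interaction of -2.61 (SE 0.60). Its libraries in MM were at 103, 142 and 220 CPM at 1 week and 27.7, 36.4 and 32.5 at 2 weeks.

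Lgr5 encodes the receptor for R-spondins and is a Wnt target of stem cells and of pericentral hepatocytes. It was at 12.2, 7.71 and 5.03 CPM in HM-Wnt at 1 week and 6.01, 5.46 and 7.82 at 2 weeks. In MM it was at 3.71, 5.40 and 2.07 CPM at 1 week and 0.205, 0.0895 and 0.477 at 2 weeks, or 8, 4 and 18 counts. The media overlapped at 1 week, and at 2 weeks every MM library lay below every HM-Wnt library. The medium effect went from -1.16, not past the threshold, to -4.65 (edgeR adjusted p = 0.00115), and the interaction was -3.49 (SE 0.72).

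Rassf4, a member of the RAS association domain family, ranked first in the table. It was at 5.37, 6.43 and 6.67 CPM in HM-Wnt at 1 week and 18.7, 13.1 and 15.1 at 2 weeks, and at 8.70, 12.5 and 28.8 CPM in MM at 1 week and 3.74, 3.47 and 5.38 at 2 weeks. The 2 weeks libraries lay above those of 1 week in HM-Wnt and below them in MM, without overlap, and its interaction was -3.34 (SE 0.53, unadjusted p = 5.24e-05, edgeR adjusted p = 0.392). The gene Depp1 overlaps it on the opposite strand, and no source used here says whether counting used strand, so reads of the pair cannot be told apart. Cyp2s1, a cytochrome P450 of epithelia, likewise lay higher at 2 weeks in HM-Wnt and lower in MM, without overlap, at 4.16, 2.05 and 1.96 CPM in HM-Wnt and 20.9, 13.2 and 21.6 in MM at 1 week, then 10.5, 10.7 and 6.90 in HM-Wnt and 2.07, 9.17 and 4.51 in MM at 2 weeks. Its medium effect of 2.76 at 1 week passed the threshold and that of -0.83 at 2 weeks did not, for an interaction of -3.60 (SE 0.68).

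The other 6 negative genes had interactions from -2.43 to -0.65. Tnfrsf23, a decoy receptor for TRAIL, was at -2.43 (SE 0.52), and Niban2 was at -2.26 (SE 0.54) with its difference between times larger in HM-Wnt. Ntrk2, the receptor for BDNF, was at -1.85 (SE 0.34), and Col12a1, a fibril-associated collagen, at -1.67 (SE 0.35). Grhl1, an epithelial transcription factor, was at -1.52 (SE 0.31) and Frrs1, a ferric reductase, at -0.65 (SE 0.16). The error of Frrs1 was the smallest of the 24. Its MM libraries lay below those of HM-Wnt at both times, and its medium effect was -0.11 at 1 week and -0.76 at 2 weeks (edgeR adjusted p = 0.00271). Of the 24 genes, 14 are overlapped by another annotated gene in GRCm39, mostly long noncoding RNAs on the other strand.

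Gene lists were read by their counts and their medians beside the same over all genes, where 50.3% of interactions were positive, the median was 0.00 and 7.32% had an unadjusted p under 0.05. Under log2 TPM scales the median of all genes was -0.33 with a pseudocount of 1 and -0.40 with 0.1, so list medians on those scales are to be read against these shifts. The medians of the lists named below kept their sign under DESeq2, RLE factors, both TPM scales and the replicate block, except where stated. In no list did a member pass the edgeR threshold, and over all 28 lists DESeq2 called 8 members.

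The list of PPARalpha targets and fatty acid oxidation genes was positive in all but 1 of its tested members. Of 18 members 17 were tested, 16 of the 17 interactions were positive, the median was 0.65, and 6 had an unadjusted p under 0.05, all positive. Besides Vnn1 and Cyp4a10 these included Plin2, the coat protein of lipid droplets, which was at 776, 814 and 788 CPM in HM-Wnt and 1382, 1102 and 1025 in MM at 1 week. At 2 weeks it was at 787, 782 and 615 CPM in HM-Wnt and 2200, 1931 and 2112 in MM, for an interaction of 0.95 (SE 0.24). Acot1, a cytosolic acyl-CoA thioesterase close in sequence to Acot2, was at 1.77 (SE 0.57). For the medium effect, 2 of the 17 passed at 1 week and 13 at 2 weeks, all higher in MM, against 1.76% and 6.84% of all genes. The median in replicate number 2 was -0.08, against 0.65 and 1.40 in numbers 1 and 3.

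The hypoxia and glycolysis list was negative throughout. Of 17 members 16 were tested, 0 of the 16 interactions were positive, the median was -1.07, and 7 had an unadjusted p under 0.05. After Adm and Ndrg1 came Egln3, the HIF prolyl hydroxylase that HIF itself induces, at -1.45 (SE 0.38), and Pfkfb3, which makes the glycolysis activator fructose 2,6-bisphosphate, at -1.40 (SE 0.49). The median medium effect was 0.16 at 1 week and -0.98 at 2 weeks, where 5 members were lower in MM and 0 higher by edgeR's adjusted p, against 4.61% and 6.84% of all genes. The median was -1.27, -0.31 and -1.07 in replicate numbers 1 to 3.

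The 13 genes encoded by the mitochondrial genome were all tested and 13 were positive, with a median of 1.15 and 11 at an unadjusted p under 0.05. They lie on the same genome, so these counts are not of independent genes. The complex I subunit gene mt-Nd2 was at 937, 1420 and 780 CPM in HM-Wnt and 1182, 976 and 760 in MM at 1 week. At 2 weeks it was at 552, 615 and 430 CPM in HM-Wnt and 1056, 1108 and 1200 in MM, for an interaction of 1.18 (SE 0.35). The complex IV subunit gene mt-Co1 was at 0.98 (SE 0.30), and mt-Nd1 and mt-Nd6 were at 1.15 (SE 0.35) and 1.65 (SE 0.51). The libraries' mitochondrial share of counts was 1.80% to 1.83% in HM-Wnt at 2 weeks, 2.16% to 3.44% in MM at 2 weeks, 2.20% to 3.51% in HM-Wnt at 1 week and 1.99% to 2.50% in MM at 1 week. The part of RNA quality in these values was not tested. The median was 0.38, 1.40 and 1.47 in replicate numbers 1 to 3.

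**Figure D3:**
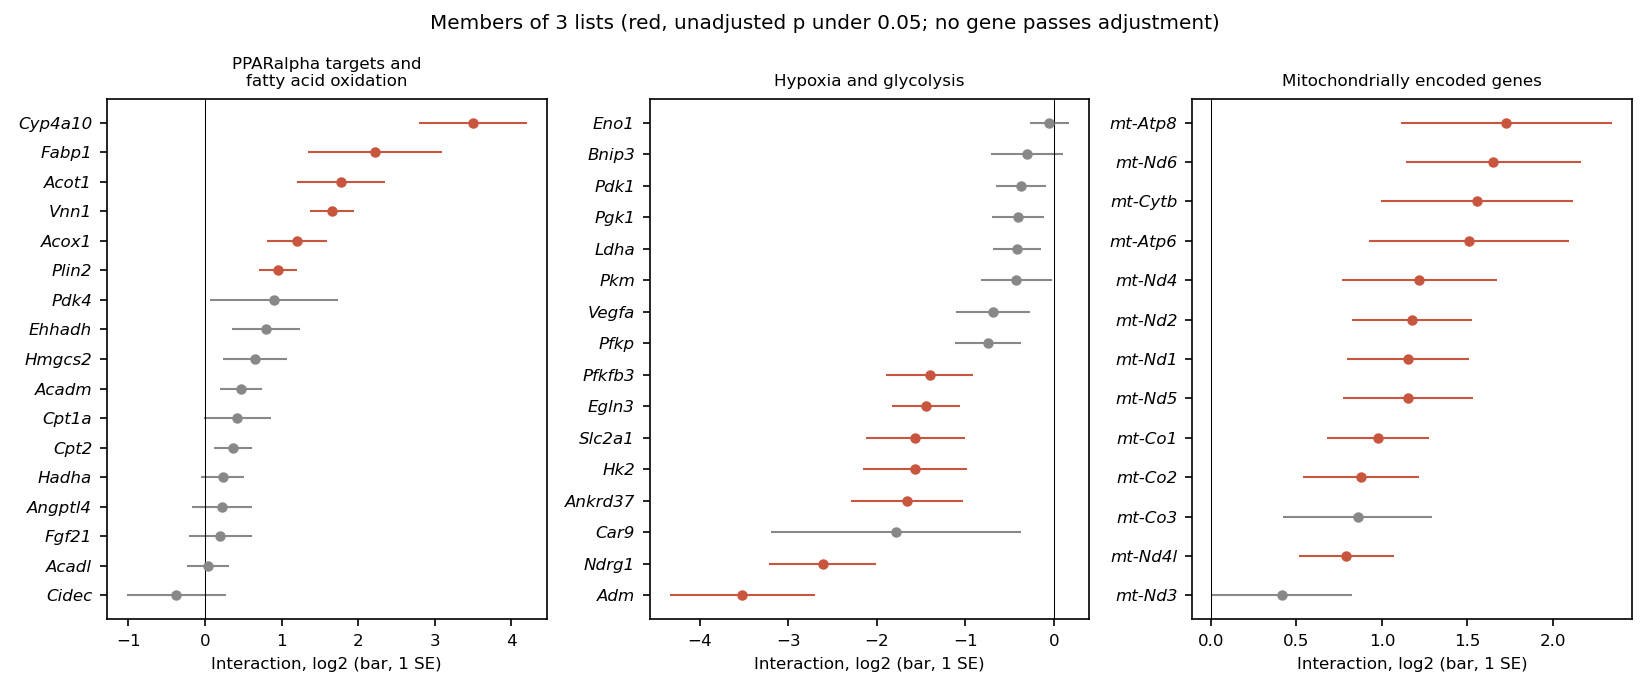
Interaction (x axis, log2) of each tested member of 3 gene lists, with bars of 1 SE from the edgeR fit to the 12 libraries. Red points have an unadjusted p under 0.05, and no gene passes adjustment. The 16 hypoxia and glycolysis genes and the 13 mitochondrial genes lie on one side of 0, and 16 of the 17 fatty acid genes do.

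Targets of Wnt and beta-catenin had mostly negative interactions. Of 14 tested (16 listed), 2 interactions were positive, the median was -0.91, and 5 had an unadjusted p under 0.05, 4 of them negative. Tbx3, a T-box repressor of the liver bud and of pericentral cells, was at -2.15 (SE 0.66), Sp5, a zinc finger feedback factor, at -2.01 (SE 0.78), and Rnf43, the ubiquitin ligase that removes Frizzled, at -0.89 (SE 0.36). Glul, the pericentral glutamine synthetase gene, went the other way at 1.10 (SE 0.48). Axin2, the scaffold protein most used as a readout of the pathway, was at 0.159 to 1.57 CPM in all 12 libraries, with an interaction of -1.33 (SE 0.76, unadjusted p = 0.109). By edgeR's adjusted p, 0 of the 14 differed between media at 1 week, against 2.98% of all genes, and 6 were lower and 1 higher in MM at 2 weeks, against 4.61% and 6.84%.

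The zonal lists had medians of opposite sign. The pericentral list shares Glul, Axin2, Tbx3, Rgn, Lect2 and Oat with the Wnt list, so the medians of these lists are not independent. Of 16 periportal genes tested, 13 were positive with a median of 1.49 and 4 at an unadjusted p under 0.05, among them Hsd17b13, a lipid droplet enzyme, at 2.75 (SE 0.89), the protease gene Ctsc at 1.83 (SE 0.67) and the gluconeogenic gene Fbp1 at 1.04 (SE 0.39). Gls2 and Cdh1, also in the periportal list, were at -0.55 (SE 0.65) and -0.64 (SE 0.34), and its member Alb was at 0.08 (SE 0.49). With the replicate block 10 periportal genes were positive and 1 negative at an unadjusted p under 0.05. The medium effect of Fbp1 passed at 2 weeks alone, with 0.99 at 1 week and 2.03 at 2 weeks. Of 17 pericentral genes, 2 were positive, with a median of -0.79, which was 0.10 in replicate number 3. At an unadjusted p under 0.05 there were 3, 2 negative and 1 positive, against 5 with the block, 4 negative and 1 positive. The positive one in both fits was Glul, at 1.10 (SE 0.48). Ahr, the aryl hydrocarbon receptor, was at -0.79 (SE 0.24), while Cyp2e1, the ethanol oxidising cytochrome, was at 45.7 to 1187 CPM and an interaction of -0.95 (SE 1.15, unadjusted p = 0.425).

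Lists of secreted proteins and transport were mostly positive, and their counts at an unadjusted p under 0.05 depended on the replicate block. Of 20 plasma protein genes 18 were positive with a median of 0.39, and 0 of them had an unadjusted p under 0.05, against 7 with the block, all positive. Of 19 acute phase genes 16 were positive with a median of 0.74, and the count at an unadjusted p under 0.05 went from 3 to 10 with the block, 9 of them positive. The serum amyloid gene Saa2, whose counts may be shared with the near-identical Saa1, was at 3.44 (SE 1.46) and the ferroxidase gene Cp at 1.41 (SE 0.62), whereas Socs3, the feedback inhibitor of IL-6 signalling, was at -1.23 (SE 0.54). Of 19 genes of bile acid synthesis and transport 14 were positive with a median of 0.42, which was -0.11 in replicate number 2. Abcg2, a canalicular efflux pump, was at 1.21 (SE 0.54), and Abcc3, a basolateral pump, was at -0.78 (SE 0.34) and at -0.50 without HM-Wnt at 2 weeks replicate 3. The count of bile acid genes at an unadjusted p under 0.05 was 2, and 6 with the block, 5 of them positive. In NAD metabolism 13 of 19 were positive, 3 had an unadjusted p under 0.05 and 10 did with the block, 8 of them positive, with the kynurenine pathway genes Kmo at 2.15 (SE 0.72) and Kynu at 1.89 (SE 0.85), and Acmsd, which diverts that pathway, at -0.88 (SE 0.37). The list's median of 0.29 turned to -0.16 on both TPM scales. The list of the hepatocyte transcription factors was positive in 13 of 20, with Xbp1, the secretory stress factor, at 0.57 (SE 0.24). Tbx3, also in this list, went the other way at -2.15 (SE 0.66). Among genes of the unfolded protein response, 11 of 17 were positive with the chaperone gene Dnajb9 at 0.73 (SE 0.21), and in fatty acid synthesis 10 of 16, with Thrsp, a lipogenic regulator, at 1.18 (SE 0.52). The medians of these 3 lists were 0.22, 0.14 and 0.08, and on log2(TPM + 1) they turned to -0.22, -0.26 and -0.20. On log2(TPM + 0.1) they turned to -0.24, -0.26 and -0.25. With the block 3, 4 and 2 members had an unadjusted p under 0.05, against 2, 1 and 1 without it. As for NAD metabolism, the medians stayed above the shift of all genes on both TPM scales. In replicate number 2 the fatty acid synthesis median was -0.49, against 0.24 and 0.43 in numbers 1 and 3. The unfolded protein response median was -0.03 in number 3, against 0.29 and 0.25 in numbers 1 and 2.

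**Figure D4:**
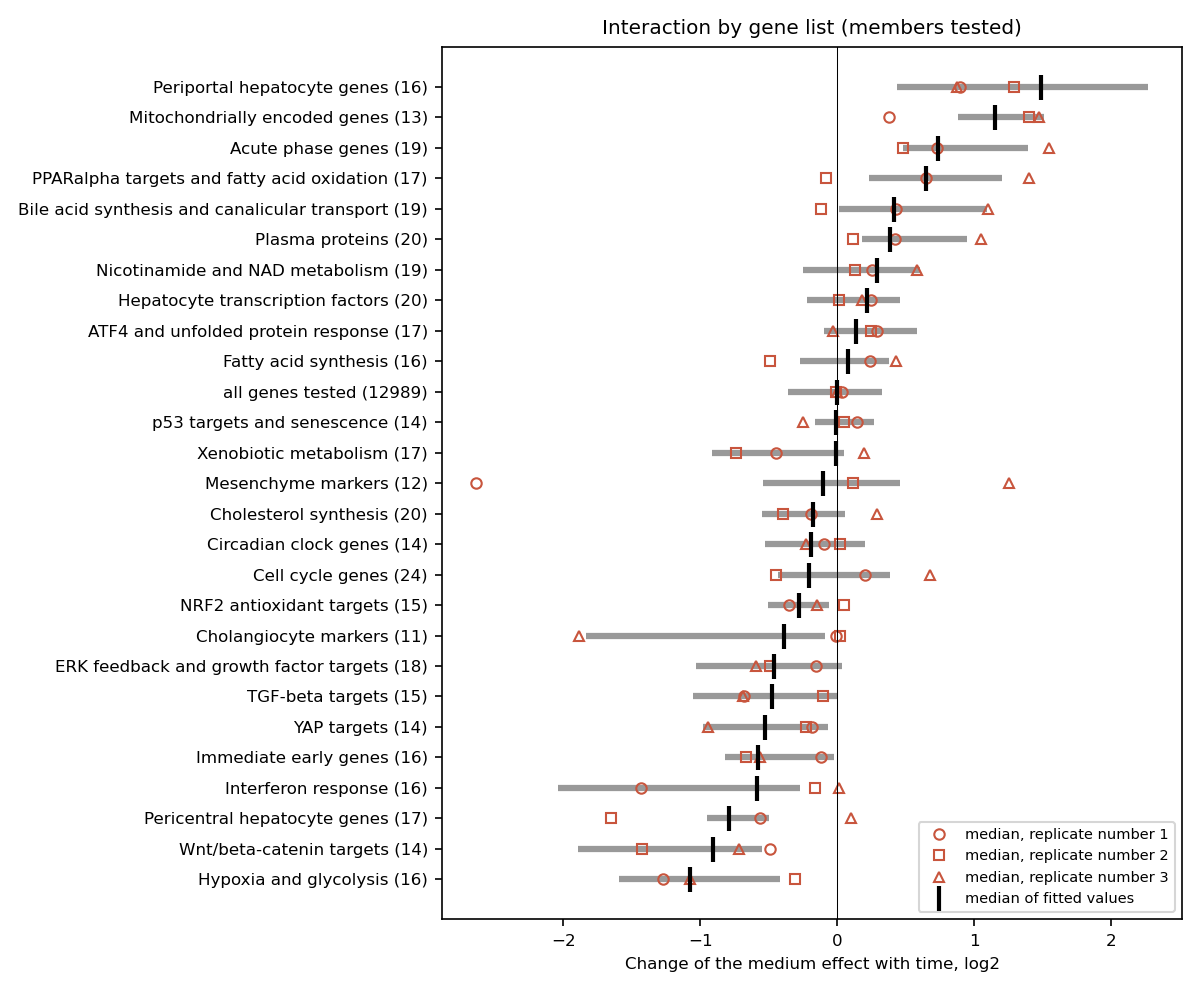
Interaction by gene list on the log2 scale. Black ticks are medians of the fitted interactions over members tested, grey bars their interquartile range, and open symbols the medians of log2(CPM + 0.5) differences within each replicate number. Lists with under 10 tested members are left out. Hypoxia genes are lowest at -1.07 and periportal genes highest at 1.49, while all genes tested sit at 0.00.

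Other signalling targets were mostly on the negative side. Of 18 ERK feedback and growth factor targets 5 were positive, with a median of -0.46, and the EGF receptor ligand gene Hbegf was at -2.03 (SE 0.89), which was -1.01 without MM at 1 week replicate 3. Ier3, an early response gene, was at -1.07 (SE 0.40). The block took the count at an unadjusted p under 0.05 from 2 to 4, 3 of them negative. Of 15 TGF-beta targets 4 were positive, with a median of -0.47, and Bhlhe40, a circadian repressor, was at -0.65 (SE 0.28). Of 14 YAP targets 2 were positive, with a median of -0.52, and the angiomotin-like gene Amotl2 was at -1.18 (SE 0.39), tissue factor F3 at -1.41 (SE 0.60) and Crim1, a regulator of BMP signalling, at -0.996 (SE 0.45). In cholesterol synthesis 6 of 20 were positive and 4 had an unadjusted p under 0.05, all negative. Among them was Srebf2, the sterol regulated transcription factor, at -1.05 (SE 0.29). The list's median was -0.18, and it was -0.19, -0.39 and 0.29 in replicate numbers 1 to 3. In the cell cycle list 9 of 24 were positive with a median of -0.20, and the medians in replicate numbers 1 to 3 were 0.20, -0.44 and 0.68. On log2(TPM + 1) the list's median was -0.22, above the -0.33 of all genes. Members at an unadjusted p under 0.05 were the topoisomerase gene Top2a, at -1.14 (SE 0.42) and the replication helicase gene Mcm6, at -0.73 (SE 0.28). Top2a was lower in MM at 1 week, with a medium effect of -1.86, and at 2 weeks, both past the threshold.

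The interferon response list depended in size on 1 library. Of 16 tested 2 were positive, with a median of -0.58 and 4 at an unadjusted p under 0.05. Ifit1, which binds viral RNA, was at 182, 7.71 and 10.5 CPM in HM-Wnt at 2 weeks, and at 4.35 to 8.64 in HM-Wnt at 1 week, 7.01 to 29.7 in MM at 1 week and 5.14 to 6.91 in MM at 2 weeks. Its interaction of -4.85 was -1.98 without HM-Wnt at 2 weeks replicate 1. Rsad2, an antiviral radical SAM enzyme, went from -5.86 to -2.62, Ifit3 from -5.67 to -2.66 and Ifit2 from -4.62 to -1.67 without that library. Among marker lists of other cells, the cholangiocyte list had 3 of 11 positive and a median of -0.39, which was -1.88 in replicate number 3. HM-Wnt at 2 weeks replicate 3 was the library with the highest summed cholangiocyte level, and the part of this in the medians of replicate number 3 was not tested. The mesenchyme list had 5 of 12 positive and the immune list 4 of 6, the latter with a median of 0.76. The immune median turned to -0.094 with the replicate block and to -0.38 and -1.03 on the TPM scales with a pseudocount of 1 and 0.1. It was -2.565, -0.623 and 2.447 in replicate numbers 1 to 3. Of 10 endothelial markers 3 had enough counts. The remaining lists, with 0 members at an unadjusted p under 0.05, were NRF2 targets (3 of 15 positive, median -0.28), immediate early genes (4 of 16, -0.58), clock genes (6 of 14, -0.19), p53 targets (6 of 14, -0.005, which was 0.006 with DESeq2 and 0.005 with RLE factors) and xenobiotic metabolism (8 of 17, -0.006). With the replicate block, 0, 1, 2, 1 and 5 of their members in that order had an unadjusted p under 0.05, as did 2 cholangiocyte markers and 1 immune marker.

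Other genes that the study follows showed no interaction past the threshold, and their standard errors ran from 0.25 to 1.80. Alb was at 24900, 14380 and 21500 CPM in HM-Wnt and 13280, 9430 and 9221 in MM at 1 week, and at 13960, 8763 and 14580 in HM-Wnt and 8280, 3853 and 8552 in MM at 2 weeks. Its interaction was 0.08 (SE 0.49), and MM was lower in mean level at both times, with medium effects of -0.93 at 1 week and -0.85 at 2 weeks. Hpx, the plasma haemopexin gene, had an interaction of 1.25 (SE 0.80), and Arg1, the urea cycle arginase, 2.37 (SE 1.80). Hnf4a, the hepatocyte master regulator, was at 0.33 (SE 0.30), Cdh1, epithelial cadherin, at -0.64 (SE 0.34) and Gls2, the periportal glutaminase, at -0.55 (SE 0.65). The canalicular transporter genes Abcb11, Abcb4 and Abcc2 were at 1.19 (SE 0.96), 0.40 (SE 0.28) and -0.08 (SE 0.25). The drug metabolising genes Cyp3a11 and Cyp1a1 were at 0.05 (SE 0.85) and -0.54 (SE 0.99). With the replicate block, edgeR's unadjusted p was 0.00133 for Arg1, 0.00537 for Hpx, 0.019 for Abcb11 and 0.0272 for Cdh1. Their interactions in that fit were 3.37, 1.43, 1.29 and -0.61, and none passed adjustment. For Alb, Hnf4a, Gls2, Abcb4, Abcc2, Cyp3a11 and Cyp1a1 the unadjusted p with the block stayed above 0.05. A p that misses the threshold does not show that the medium effect was constant.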

How the data were processed

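RNA of organoids collected from Matrigel was made into full-length cDNA libraries (SMART-seq2, Nextera) and sequenced in pairs. The authors aligned reads with STAR to GRCm39 and counted them per gene with featureCounts, and the deposited counts, whole numbers not normalised, were used as they are. The strand setting is not given in the sources used here. The deposited TPM values, for which the authors divided by a gene length given in the table, served in alternatives only. The table holds 37 libraries and 21848 genes, and 10 libraries with no matching label were not used.

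The 12 HepOrg libraries were fitted together by edgeR 4.0.16 under R 4.3.3 (TMM, filterByExpr with a minimum count of 10 and total of 15, 1 mean per group, quasi-likelihood test, Benjamini-Hochberg adjustment over 12989 genes, threshold 0.05), and the code was checked on simulated counts. Standard errors are the log2 value divided by the root of the test's F. Alternatives used DESeq2 1.42.0 and limma 3.58.1. The contrasts, named genes and 28 gene lists were chosen with earlier results of these data known. Named genes were the 12 of smallest p in each direction (average log2 CPM of at least 1, no predicted names, since none passed the threshold), genes the study follows, and up to 4 members of a list, printed where their unadjusted p was under 0.05. No gene passed with the replicate block, so its own rule named none. As no gene passed, patterns of genes past the threshold could not be given. Some named genes are not reported here. List members Ddit3, Aldoa and Bmal1 were not analysed here, and B2m, Oat, G6pdx, Ugt1a1 and Afmid are listed at 0 counts in each library.

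Same replicate numbers deviated together from their group means: 18 of 18 pairs with the same number had r over 0.1 (0.127 to 0.503), against 2 of 36 pairs with different numbers. The labels do not say what a number marks. The pairing is therefore taken from the data, and blocked results are given. Depth was 30289364 to 58815016 counts, and intervals cover counting error only.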

Additional observations from a re-analysis of the deposited data

Results flagged for a closer look

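Of the 24 ranked genes, 7 had a medium difference of one sign in 3 of 3 replicate numbers at 1 week and of the other sign in 3 of 3 at 2 weeks, as did 433 of all genes tested (3.33%). The 7 were taken from a ranking by the interaction, and no difference between the times passed edgeR's threshold for them, with an adjusted p of 0.392 for Rassf4, Cyp2s1, Dhrs9, Abcd2 and Col12a1 and 0.605 for Fst and Niban2. On log2(CPM + 0.5), MM minus HM-Wnt went from negative to positive in 3 of them, all with positive interactions. Dhrs9 had an interaction of 1.94 and differences of -0.82 to -0.02 at 1 week and 1.03 to 1.27 at 2 weeks. Abcd2 had an interaction of 1.15, with -0.85 to -0.66 and then 0.24 to 0.68. Fst had an interaction of 2.23 (2.235 to 3 decimals), with -1.49 to -0.55 and then 0.10 to 1.79. The other 4 went from positive to negative. Rassf4 had an interaction of -3.34, with 0.65 to 2.03 and then -2.18 to -1.41. Cyp2s1 had -3.60, with 2.20 to 3.17 and then -2.10 to -0.21. Col12a1 had -1.67, with 0.03 to 1.24 and then -1.39 to -0.52. Niban2 had -2.26, with 0.95 to 2.31 and then -1.18 to -0.10. Groups of 3 libraries are too small for a test of single outlying libraries.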

How the results depend on the processing

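Changes of tool and scale moved the counts of genes past the threshold. For the change of the medium effect with time, edgeR gave 0 genes; DESeq2 gave 43, DESeq2 with the replicate block 342 and limma on unfiltered log2(TPM + 1) 4, while RLE factors, other filters, both filtered TPM scales, edgeR with the replicate block, all 27 libraries in 1 fit, voom with quality weights and the limit of 1 on the log2 value gave 0. Of the 43 genes, 42 were also called by DESeq2 with the block. Members of the gene lists went from 0 to 8 called with DESeq2. Leaving out each of the 12 libraries gave 0 each time.

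For the medium effect at 1 week (387), DESeq2 gave 1412, unfiltered log2(TPM + 1) 251, edgeR with the replicate block 1232, DESeq2 with the block 2284, all 27 libraries 0, voom 1334 and the limit on the log2 value 254. At 2 weeks (1488) the same settings gave 2494 for DESeq2, 2544 and 3299 with the block, 7 for all 27 libraries, 3977 for voom and 979 with the limit. Without 1 library the counts ran from 42 (without MM at 1 week replicate 1) to 600 (without MM at 1 week replicate 3) at 1 week. At 2 weeks they ran from 578 (without MM at 2 weeks replicate 1) to 1992 (without HM-Wnt at 1 week replicate 2). In the change with time in MM (2), the counts were 308 for DESeq2, 619 for DESeq2 with the block, 531 for voom, 5 with no filter, 4 on log2(TPM + 1), 1 on log2(TPM + 0.1), 1 on unfiltered TPM, 0 for all 27 libraries, and 0 to 11 without 1 library. In HM-Wnt (0) they were 13, 494 with the block and 4 on unfiltered TPM, and 0 to 1 without 1 library. With the replicate block edgeR gave 3 in MM and 0 in HM-Wnt. The share of 1 week calls with the same sign at 2 weeks (98.2%) was 95.2% with DESeq2, 96.0% and 91.9% with the block in edgeR and DESeq2, and 96.2% to 100% without 1 library. The cause of these shifts was not tested.

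For the 24 ranked genes, 495 of 543 values under alternatives kept their direction and their side of the threshold, 48 passed it (DESeq2 with and without the block) and 0 changed direction. Signs changed for some genes the study follows. On log2(TPM + 1), log2(TPM + 0.1) and unfiltered log2(TPM + 1), the median of all genes was itself at -0.33, -0.40 and -0.092. Hnf4a, at -0.089, -0.095 and -0.089, and Abcb4, at -0.018, -0.019 and -0.018, stayed above these medians. Cyp3a11, at -0.290, -0.293 and -0.290, lay below the last alone, and Alb, at -0.41 on each, lay below all 3. With voom, Gls2 was at 0.13, Alb at -0.083 and Cyp3a11 at -0.75. Without 1 library, Alb ran from -0.13 to 0.34, Cyp3a11 from -0.86 to 0.56, Abcc2 from -0.25 to 0.014 and Cyp1a1 from -1.59 to 0.001. What depth and the number of libraries limit was not tested.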
